A study of Mus musculus with 9 samples.

Results

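The 43 autophagy and lysosome genes described here were the rows for a fixed list of symbols, from the kinase that starts autophagy to the enzymes inside the lysosome. The list was drawn up because FAK-/- SCC cells are known to send active Src to autophagosomes. All 43 symbols were found in the deposited table, each with 1 Ensembl identifier, among 19044 genes in all. None of the 43 is a target that the cells were engineered for. The list was chosen by function rather than by measured change, though with earlier results of these data known.

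RNA-seq libraries were made from 3 cultured cell lines of mouse squamous cell carcinoma (SCC), with 3 replicates of each. *FAK*, encoded by *Ptk2*, had been deleted from cells of K14CreER *FAK* flox/flox FVB mice treated with DMBA and TPA, by 4-hydroxytamoxifen in culture. The FAK-/- cells are a clone of these. The same clone, given a retrovirus with wild-type FAK (FAK-WT) or kinase-deficient FAK (FAK-kd) and selected in hygromycin, made the other lines. All 3 lines therefore lack the endogenous gene and go back to 1 clone. FAK-WT and FAK-kd cells carry a stable construct, and neither a construct nor selection is described for the FAK-/- cells. A difference between lines cannot be told apart from drift of a line. A difference from FAK-/- cells can also not be told apart from effects of the retrovirus and the selection. No treatment was added. The study calls its 3 RNA-seq replicates biological, and no source used here says how they were kept apart, so that the p-values measure the spread between these libraries.

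Macroautophagy wraps cytoplasm in a new double membrane, the autophagosome, and delivers it to the lysosome for breakdown. A kinase complex of ULK1 or ULK2 with ATG13, ATG101 and FIP200 (*Rb1cc1*) receives nutrient signals and starts the process, a lipid kinase complex around Beclin 1 (*Becn1*) and VPS34 (*Pik3c3*) marks the membrane with PI3P, and a ubiquitin-like cascade couples small proteins of the ATG8 family (LC3 and GABARAP) to it. Cargo receptors such as p62 (*Sqstm1*) tie cargo to ATG8 proteins, and TFEB, TFE3 and MITF, transcription factors of the MiT/TFE family, switch on many autophagy and lysosome genes. In FAK-deficient SCC cells, autophagy is known as the route by which active Src is removed from focal adhesions. RNA levels report on the supply of these transcripts and not on the flux of autophagosomes.

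The deposited values were kallisto's estimated counts per gene, which sum to between 25304994 and 37264636 in 8 libraries and to 779755 in FAK-WT replicate 1. The 43 genes had between 1 and 507 counts in that library, and *Atg10*, *Atg4d*, *Optn* and *Tfeb* had at most 3. Among genes called below, it held 7 counts for *Neu1*, 8 for *Map1lc3a*, 9 for *Mitf* and *Atg16l2*, 12 for *Ulk2* and 14 for *Wipi1*. For these genes counting error leaves it uncertain whether that library overlaps the other groups. The limit that 3 counts set was 3.78 CPM (counts divided by the TMM-scaled library size and multiplied by 1 constant throughout) there and between 0.0798 and 0.118 CPM in the other libraries, for counting error only. *Ptk2*, which checks the labels of the FAK-/- cells, was at 213, 216 and 216 CPM in FAK-WT cells, 21.8, 23.5 and 19.6 CPM in FAK-/- cells and 155, 158 and 176 CPM in FAK-kd cells. Its level does not show which form of FAK is kinase-deficient. FAK-WT cells had more *Ptk2* than FAK-kd cells, by a log2 fold change of 0.40. Between these lines, effects of kinase activity and of the amount of FAK transcript cannot be told apart. FAK-/- replicate 3 stood apart from the other libraries of its group: across 7198 genes its median absolute log2 deviation from them was 0.18, against 0.0533 to 0.145 in the other 8 libraries, and the deviations ranked with transcript GC content (Spearman's rho 0.82 across 7072 genes, a description). The rho of FAK-/- replicates 1 and 2, each set against the mean of the other libraries of the group and so in part against replicate 3, was -0.724 and -0.774, and that of the FAK-WT and FAK-kd libraries lay between -0.105 and 0.2. Of 7 measured markers of squamous epithelium, *Itgb4* alone was above 1 CPM in all 3 groups on average, while *Krt5*, *Krt14*, *Krt18* and *Cdh1* were at or near 0. The markers *Krt17*, *Trp63* and *Epcam* were looked up too, and no row was found under these symbols. The 5 measured fibroblast markers summed to 20.1 to 24.4 CPM in FAK-WT, 57.9 to 62.2 CPM in FAK-/- and 50 to 74.9 CPM in FAK-kd libraries, mostly *Pdgfra* and *Pdgfrb*, and the leukocyte, endothelial and melanocyte markers summed to at most 3.36, 2.05 and 0.21 CPM. The part of these marker levels in the results below was not tested, and in bulk RNA fewer cells of a type and less RNA per cell cannot be told apart.

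All 43 genes were expressed, and all 43 passed edgeR's filterByExpr, a filter on low counts, which kept 12235 of the 19044 genes. Levels are compared between genes as CPM per kilobase of transcript, averaged over the 9 libraries. *Sqstm1*, which encodes the cargo receptor p62, was the highest at 305 CPM per kilobase, followed by *Lamp1*, a glycoprotein that lines the lysosomal membrane, at 255, by the ATG8 genes *Gabarap* at 117 and *Gabarapl1* at 99.6, and by *Lamp2*, the second major lysosomal membrane glycoprotein, at 86.3. The lowest were *Atg4d*, a protease of the ATG4 family, at 0.728 CPM per kilobase, *Atg10*, the E2-like enzyme for ATG12, at 0.967, and *Optn*, the cargo receptor optineurin, at 1.19. *Tfeb*, at 2.65 CPM per kilobase, was far below its relative *Tfe3*, at 21.6, with *Mitf* at 6.93 between them. The order of the 43 genes spanned a much wider range than any difference between the cell lines, as the plot of levels shows.

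**Figure D1:**
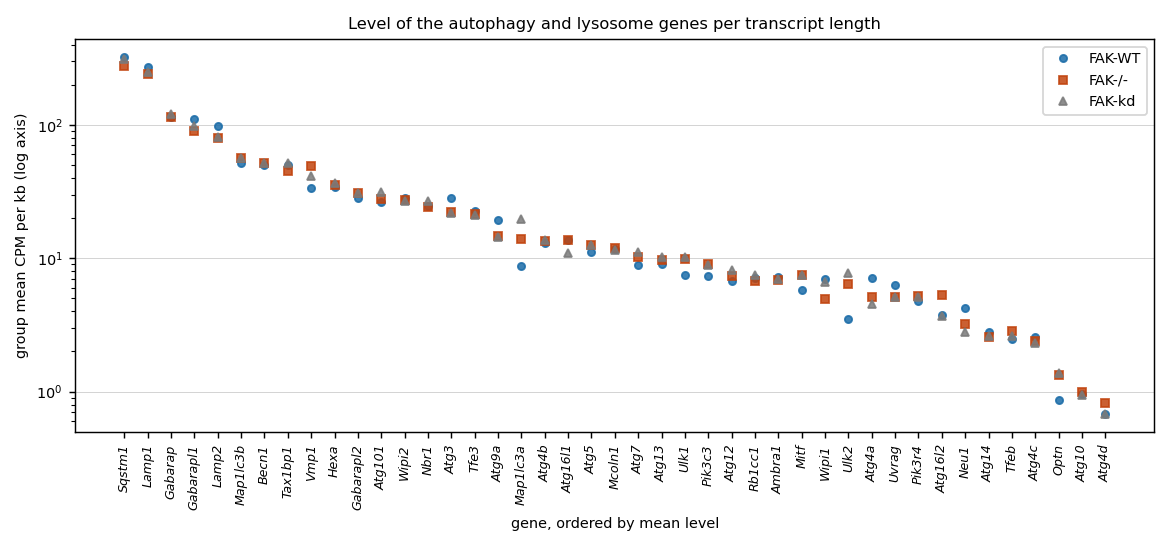
Group mean level of each of the 43 genes in CPM per kilobase of transcript (vertical, log axis), ordered by the mean over all libraries. Circles are FAK-WT, squares FAK-/- and triangles FAK-kd cells. The range runs from *Sqstm1* at 305 to *Atg4d* at 0.728, and the symbols lie apart at *Map1lc3a*, *Ulk2*, *Vmp1* and *Wipi1*, among others.

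Few of these genes were called between the lines, and their directions were mixed. In FAK-WT against FAK-/- cells, 4 of 43 genes were higher and 3 lower at an adjusted p of 0.05 (edgeR's quasi-likelihood test, Benjamini-Hochberg over all 19044 genes), beside 8.01% and 9.96% of all genes. In FAK-WT against FAK-kd cells 5 were higher and 4 lower, beside 7.58% and 10.2% of all genes. In FAK-kd against FAK-/- cells 2 were higher and 3 lower, beside 3.97% and 3.88%. Among the 12235 genes kept by filterByExpr, the group that the 43 expressed genes belong to, the shares higher and lower were 11.6% and 15.1%, then 10.7% and 15.5%, then 6.11% and 5.81% in the same order of comparisons, so that the counts for the 43 genes were near or under the background. The medians of the log2 fold changes of the 43 genes were -0.02, -0.04 and 0.01, beside 0.00 for all genes in each comparison. The comparisons share libraries, so their counts are not independent.

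Changes were also small. With the added demand of a 2-fold change in either direction, *Ulk2* and *Map1lc3a* alone were called, both in FAK-WT against FAK-kd cells, where they were lower, beside 5.26% of all genes. *Ulk2* dropped just under 2-fold without FAK-WT replicate 1 or FAK-kd replicate 2, leaving 1 member, *Map1lc3a*. No member passed this threshold with edgeR in FAK-WT against FAK-/- cells (5.38% of all genes) or in FAK-kd against FAK-/- cells (2.01%), also not at an unadjusted p under 0.05 or with DESeq2, where the counts were 0 in both. Over the comparisons, 31 genes were called in none, 5 in 1, 5 in 2 and 2 in all 3. The 2 called in all 3 were *Map1lc3a* and *Vmp1*. *Atg3*, *Atg9a* and *Lamp2* were higher in FAK-WT cells than in both other lines, and *Ulk2* was lower than in both.

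**Figure D2:**
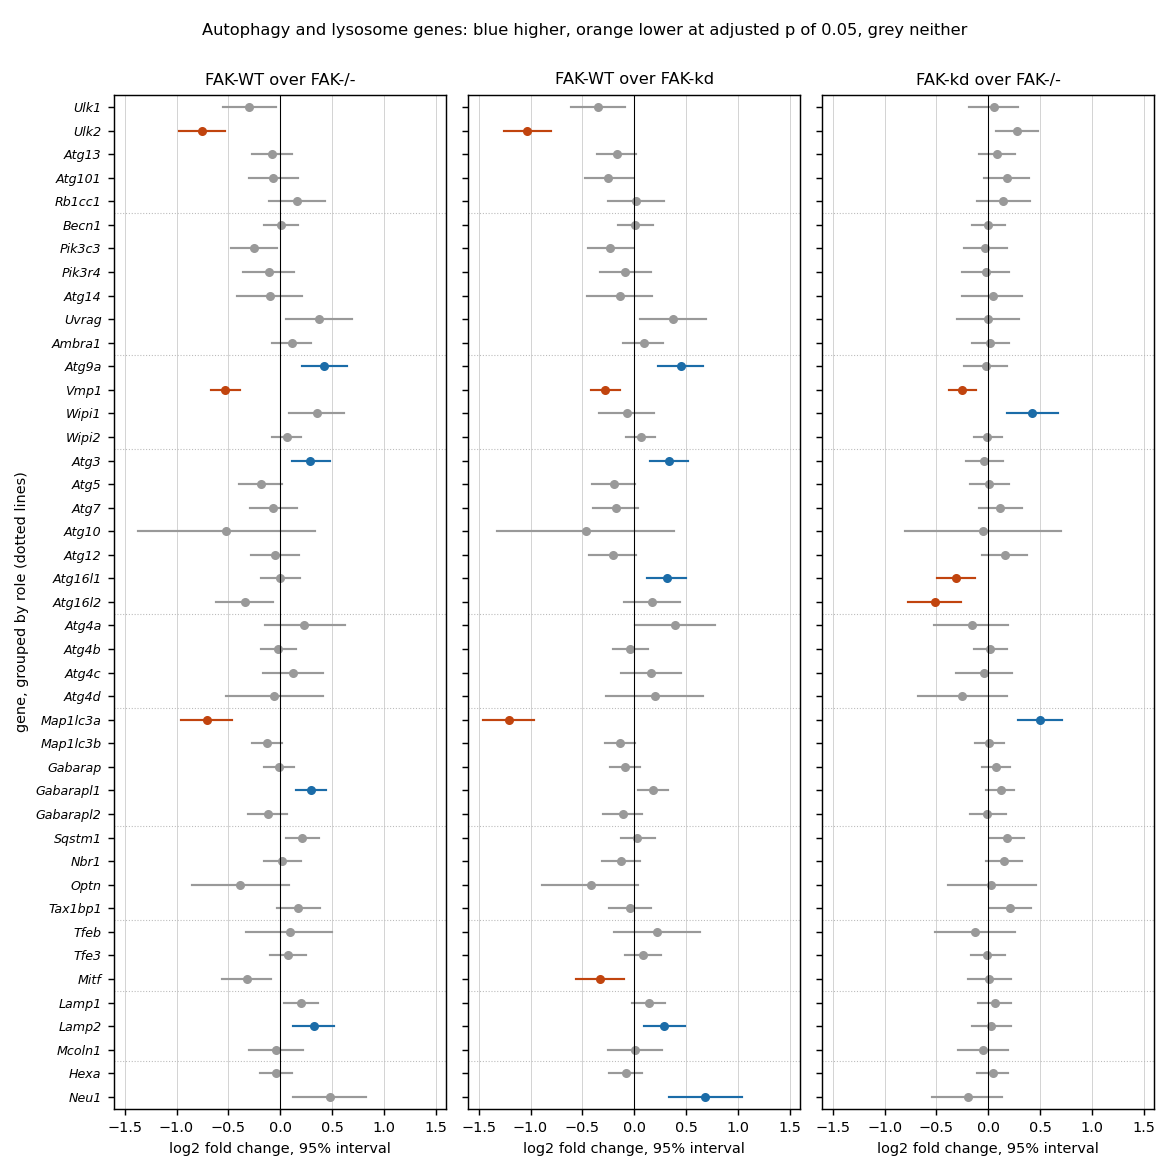
Log2 fold change (point) with its 95% interval (line, from the quasi-likelihood fit) of each of the 43 genes in the 3 comparisons, with genes grouped by role between dotted lines. Blue marks genes higher and orange genes lower at an adjusted p of 0.05, and grey the rest; *Map1lc3a* at -1.21 and *Ulk2* at -1.03 in FAK-WT over FAK-kd cells lie farthest from 0 among the called genes.

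The counts depended on which libraries were in the fit. Without FAK-/- replicate 3, which shares in the estimate of spread for every comparison, the called members rose to 8 higher and 5 lower in FAK-WT against FAK-/- cells, 9 and 6 in FAK-WT against FAK-kd cells, and 4 and 3 in FAK-kd against FAK-/- cells. The shares of all genes moved with them, to 10.7% higher and 12.4% lower, 12.8% and 15.3%, and 6.27% and 5.34%. Without FAK-WT replicate 2 the called members fell to 1 higher and 3 lower, 1 and 2, and 1 and 1, beside 4.74% and 6.15%, 4.67% and 6.51%, and 3% and 3.1% of all genes. Without FAK-WT replicate 3 they fell to 1 and 3, 1 and 3, and 1 and 2, beside 4.54% and 6.04%, 4.49% and 6.44%, and 3.02% and 3.15%. Without the shallow FAK-WT replicate 1 they were 6 higher and 3 lower, 5 and 3, and 2 and 3, beside 7.71% and 9.94%, 7.46% and 10.2%, and 4.37% and 4.42%.

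The sequences upstream of the RefSeq start sites (GRCm38.p6) were read for 2 short motifs. CACGTG is the core of the element that TFEB, TFE3 and MITF bind in lysosomal promoters, and TGANTCA is the element of AP-1 dimers of Jun and Fos. Each reads the same on both strands, and a match of one can share only its end letters with a match of the other. Within 250 bases before a start, CACGTG was present for 6.86% of 27025 genes and for 5 of the 37 members found in the promoter table (*Atg3*, *Atg5*, *Atg7*, *Lamp1* and *Mcoln1*). TGANTCA was present for 7.82% of those genes and for 1 member, *Neu1*. Of the 10 called members in the table, *Atg3* held CACGTG and *Neu1* held TGANTCA, and the other 8 held neither in this window. The sequences printed here, with matches in capitals, are 2 promoters with CACGTG, of an uncalled and a called member, that of *Neu1*, and for contrast those of *Lamp2* and *Ulk2*, which were called and hold neither motif. The sequence of *Lamp1* (chr8:13158911-13159160 on the plus strand) has 4 matches, beginning 61, 45, 28 and 15 bases before the start. That of *Atg3* (chr16:45158707-45158784 on the plus strand) has 2 matches, beginning 94 and 71 bases before the start, and was printed only outside annotated exons. *Neu1* (chr17:34931003-34931252 on the plus strand) has its match 148 bases before the start, and *Lamp2* (chrX:38456461-38456710 on the minus strand) and *Ulk2* (chr11:61855093-61855342 on the minus strand) are given in full length.
Lamp1: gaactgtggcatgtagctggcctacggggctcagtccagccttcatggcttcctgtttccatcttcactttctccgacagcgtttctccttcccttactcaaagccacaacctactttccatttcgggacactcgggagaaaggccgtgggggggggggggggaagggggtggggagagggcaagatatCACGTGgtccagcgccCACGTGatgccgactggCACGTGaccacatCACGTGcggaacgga
Atg3: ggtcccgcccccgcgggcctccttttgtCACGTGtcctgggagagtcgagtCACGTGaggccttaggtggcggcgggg
Neu1: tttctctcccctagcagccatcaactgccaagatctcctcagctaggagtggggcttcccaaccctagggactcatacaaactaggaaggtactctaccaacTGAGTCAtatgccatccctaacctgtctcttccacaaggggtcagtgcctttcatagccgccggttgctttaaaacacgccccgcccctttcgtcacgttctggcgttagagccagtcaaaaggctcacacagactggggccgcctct
Lamp2: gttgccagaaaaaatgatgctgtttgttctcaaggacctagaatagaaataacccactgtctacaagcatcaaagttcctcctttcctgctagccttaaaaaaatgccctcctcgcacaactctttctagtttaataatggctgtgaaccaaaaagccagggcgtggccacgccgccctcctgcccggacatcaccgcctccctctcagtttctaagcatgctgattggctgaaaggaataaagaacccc
Ulk2: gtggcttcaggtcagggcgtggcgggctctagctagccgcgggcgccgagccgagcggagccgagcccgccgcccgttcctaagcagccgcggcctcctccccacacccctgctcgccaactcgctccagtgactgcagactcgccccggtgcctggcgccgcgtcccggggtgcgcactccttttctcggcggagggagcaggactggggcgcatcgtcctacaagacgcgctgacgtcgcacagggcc
A match is a description of the letters and not a bound site. The members *Pik3c3*, *Atg16l1*, *Rb1cc1*, *Map1lc3a*, *Atg12* and *Becn1* were not searched.

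In the initiation complex, *Ulk2* was lower in FAK-WT cells and its partners were not called. *Ulk2* (chr11:61775649-61855073, minus strand) was at 15.1, 22.5 and 22.4 CPM in FAK-WT, 35.8, 38.6 and 35.7 CPM in FAK-/- and 41.5, 47.2 and 44.7 CPM in FAK-kd libraries. All 3 FAK-WT libraries lay below all others, and the FAK-kd libraries above the FAK-/- ones. The log2 fold change was -0.75 (SE 0.11, adjusted p = 0.00012) against FAK-/- cells and -1.03 (SE 0.11, adjusted p = 5.6e-06) against FAK-kd cells, and both calls held without any 1 library. The difference of 0.28 between FAK-kd and FAK-/- cells was not called (SE 0.10, adjusted p = 0.104), but was without FAK-/- replicate 3 (0.26, adjusted p = 0.0415).

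*Ulk1*, the paralogous kinase, was at 26.4, 38.3 and 34.2 CPM in FAK-WT, 39.2, 39.5 and 50.5 CPM in FAK-/- and 43, 44.9 and 46.2 CPM in FAK-kd libraries. The FAK-WT libraries were again the lowest, but the log2 fold changes of -0.30 against FAK-/- (95% interval -0.55 to -0.04, adjusted p = 0.113) and -0.35 against FAK-kd cells (-0.61 to -0.09, adjusted p = 0.0619) were not called. The latter was called without FAK-/- replicate 3 (-0.32, adjusted p = 0.00234), in a fit of only the groups compared (adjusted p = 0.013) and with a correction for GC content that was added after the data were seen (adjusted p = 0.0111). *Ulk2* made up 30.4, 31 and 33.4% of the summed *Ulk1* and *Ulk2* level per kilobase in FAK-WT libraries, 41.2, 42.8 and 35.1% in FAK-/- libraries and 42.5, 44.6 and 42.6% in FAK-kd libraries. The FAK-WT shares lay below the rest in every library, as the plot of family shares shows. *Atg13*, *Atg101* and *Rb1cc1*, the other subunits, were not called in any comparison, with log2 fold changes between -0.25 and 0.18. *Atg101* was called without FAK-/- replicate 3, at -0.25 for FAK-WT over FAK-kd (adjusted p = 0.0108) and 0.30 for FAK-kd over FAK-/- cells (adjusted p = 0.00819), both also with the GC correction (adjusted p = 0.0343 and 0.012), and the first in a fit of only the groups compared (adjusted p = 0.0275).

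No member of the lipid kinase complex was called in any comparison. *Becn1*, whose product Beclin 1 is its scaffold, was at 64.2, 80.5 and 79.3 CPM in FAK-WT, 78.6, 75.1 and 78 CPM in FAK-/- and 80.6, 76.8 and 74 CPM in FAK-kd libraries. The groups overlapped throughout, and its log2 fold changes were 0.01, 0.01 and -0.00 in the 3 comparisons, with 95% intervals within -0.16 to 0.18. Of its 31-base words, 51.6% also occur in another annotated gene, nearly all in *Cntd1*, so its values are uncertain. *Ambra1*, a regulator of Beclin 1 that has been placed with FAK and Src in these cells, was at 34, 37.6 and 38.1 CPM in FAK-WT, 34.2, 33 and 36.7 CPM in FAK-/- and 34.3, 35.4 and 35.9 CPM in FAK-kd libraries. Those libraries overlapped too, and the log2 fold changes were 0.11 (-0.08 to 0.30), 0.09 (-0.11 to 0.28) and 0.02 (-0.16 to 0.20). *Pik3c3*, the lipid kinase itself, differed by -0.25 and -0.23 in FAK-WT cells against FAK-/- and FAK-kd cells (adjusted p = 0.117 and 0.164), and the first of these was called without FAK-/- replicate 3 (-0.30, adjusted p = 0.018) and with the GC correction (adjusted p = 0.0253). *Uvrag*, a subunit of the endosomal form of the complex, was 0.37 higher against each (adjusted p = 0.109 and 0.11), with 1 FAK-WT library at 41.1 CPM and the other FAK-WT libraries at 26.4 and 29.3 CPM. *Uvrag* was called against FAK-/- cells without FAK-/- replicate 2 (0.51, adjusted p = 0.0292) and against FAK-kd cells without FAK-/- replicate 3 (0.39, adjusted p = 0.0193) or in a fit of only the groups compared (0.40, adjusted p = 0.0341). The accessory subunits *Pik3r4* and *Atg14* differed by at most 0.14 in size.

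Among the genes of membrane supply, the lipid scramblase gene *Atg9a* was higher and *Vmp1* lower in FAK-WT cells. *Vmp1* (chr11:86583865-86683836, minus strand), an endoplasmic reticulum protein needed to form autophagosomes, was at 88.1, 94 and 97.4 CPM in FAK-WT, 137, 137 and 135 CPM in FAK-/- and 118, 116 and 111 CPM in FAK-kd libraries. The 3 groups did not overlap, with FAK-WT lowest and FAK-/- highest. The log2 fold changes were -0.53 for FAK-WT over FAK-/- (SE 0.07, adjusted p = 3.4e-05), -0.28 for FAK-WT over FAK-kd (SE 0.07, adjusted p = 0.00685) and -0.25 for FAK-kd over FAK-/- cells (SE 0.06, adjusted p = 0.022). The second was lost without FAK-kd replicate 2 or FAK-WT replicate 2 (adjusted p up to 0.0717), and the third without any of FAK-kd replicates 2 and 3, FAK-/- replicates 1 and 2 and FAK-WT replicate 2 (adjusted p = 0.0504 to 0.135) and in a fit of only the groups compared (adjusted p = 0.0565).

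*Atg9a* (chr1:75180860-75192196, minus strand) was at 73, 82.9 and 79.6 CPM in FAK-WT, 55.6, 54.2 and 69 CPM in FAK-/- and 53.2, 61.8 and 61 CPM in FAK-kd libraries. Its log2 fold changes were 0.42 against FAK-/- (SE 0.10, adjusted p = 0.00833) and 0.45 against FAK-kd cells (SE 0.10, adjusted p = 0.00559), with all FAK-WT libraries above the others. Without FAK-WT replicate 2 the adjusted p was 0.071 and 0.0507. Of the 31-base words of its transcripts, 41.2% also occur in another annotated gene, nearly all in *Gm29253*, so reads could be split between them. The same limit holds to a lesser degree for *Rb1cc1* (21.4% of words shared), *Gabarapl2* (21.3%), *Atg4d* (20.4%), *Sqstm1* (19.4%) and *Gabarapl1* (18.9%). *Wipi1* (chr11:109573331-109611967, minus strand), which binds PI3P on the growing membrane, was at 17.6, 12.5 and 12.7 CPM in FAK-WT, 9.71, 10.1 and 10.8 CPM in FAK-/- and 12, 14.5 and 14.5 CPM in FAK-kd libraries. FAK-/- cells had the lowest level in every library, and the difference was called between FAK-kd and FAK-/- cells (0.42, SE 0.11, adjusted p = 0.0333) but not between FAK-WT and FAK-/- cells (0.35, SE 0.12, adjusted p = 0.0672). The first call was lost with DESeq2 (adjusted p = 0.0985), in a fit of only the groups compared (adjusted p = 0.0511) and in 6 of the 9 leave-one-out fits (without FAK-kd replicates 2 or 3, FAK-/- replicates 1 or 2, or FAK-WT replicates 2 or 3, adjusted p = 0.0598 to 0.178), and the second appeared without FAK-kd replicate 1 or FAK-/- replicate 3 (adjusted p = 0.0277 to 0.0432), after filterByExpr (adjusted p = 0.0408) and with the GC correction (adjusted p = 0.0268). Its paralogue *Wipi2* differed by at most 0.06 in size, and made up 80.4% ± 2.53 (SD, n = 3) of the pair's level per kilobase in FAK-WT cells, 84.5% ± 0.821 in FAK-/- cells and 80.2% ± 1.41 in FAK-kd cells.

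**Figure D3:**
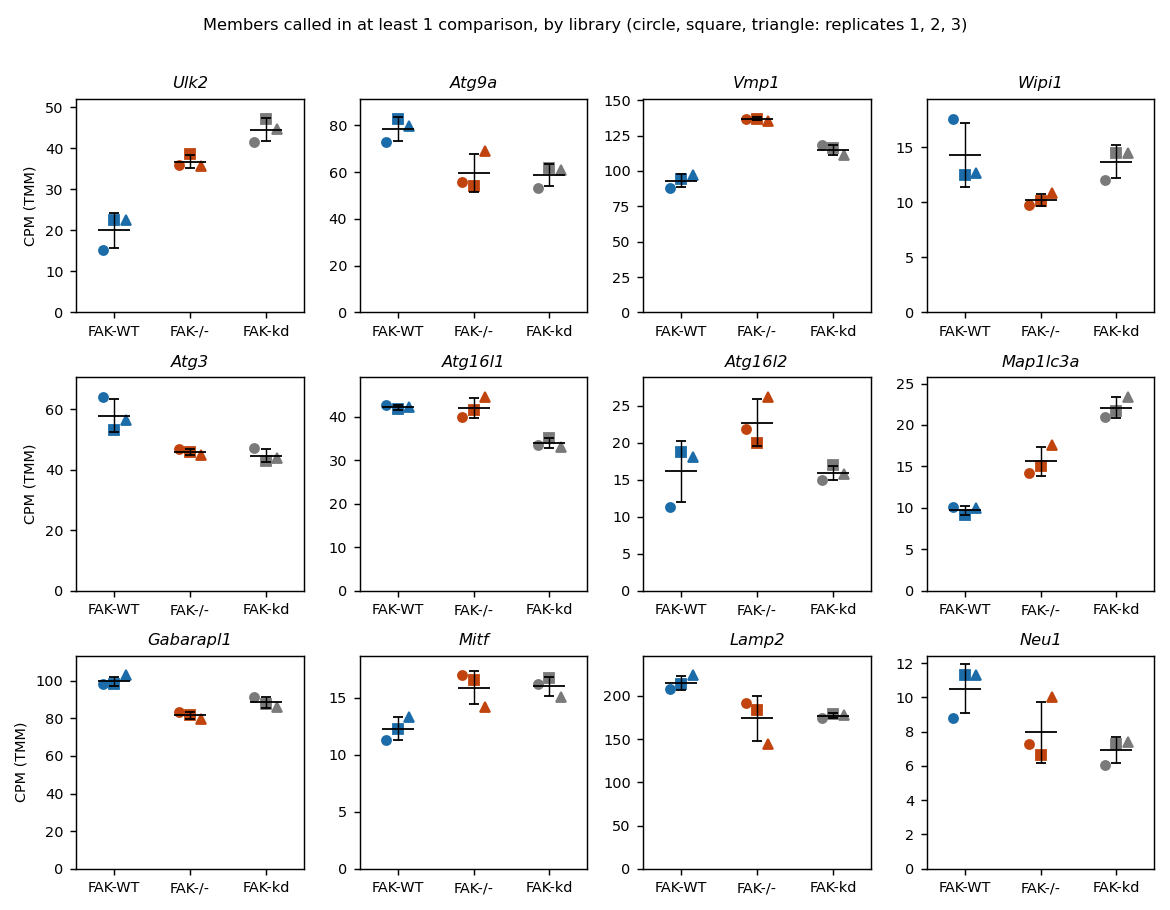
TMM-scaled CPM of the 12 members called in at least 1 comparison, in each library (circles, squares and triangles are replicates 1, 2 and 3), with the group mean and SD in black and axes from 0. FAK-WT libraries are lowest for *Ulk2*, *Vmp1* and *Map1lc3a* and highest for *Atg9a*, *Atg3*, *Lamp2* and *Gabarapl1*, and FAK-kd libraries are highest for *Map1lc3a*, at 21 to 23.4 CPM.

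In the conjugation cascade, *Atg3* was higher in FAK-WT cells, *Atg16l1* was lower in FAK-kd cells than in both other lines, and *Atg16l2* was lower in FAK-kd than FAK-/- cells. *Atg3* (chr16:45158785-45188538, plus strand), the E2-like enzyme that couples ATG8 proteins to lipid, was at 64.2, 53.3 and 56.5 CPM in FAK-WT, 46.9, 46 and 44.8 CPM in FAK-/- and 47.2, 42.9 and 43.9 CPM in FAK-kd libraries. The FAK-WT libraries lay above all others. The log2 fold changes were 0.29 against FAK-/- (SE 0.09, adjusted p = 0.0301) and 0.33 against FAK-kd cells (SE 0.09, adjusted p = 0.0143). The first was lost without any of FAK-/- replicates 1 and 2 and FAK-WT replicates 2 and 3 (adjusted p = 0.0502 to 0.139) and with the GC correction (0.21, adjusted p = 0.0611), and the second without FAK-kd replicates 2 or 3 or FAK-WT replicate 3 (adjusted p = 0.0568 to 0.0823).

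*Atg16l1* (chr1:87755870-87792428, plus strand), part of the E3-like complex with ATG12 and ATG5, was at 42.8, 41.7 and 42.2 CPM in FAK-WT, 40, 41.6 and 44.6 CPM in FAK-/- and 33.6, 35.2 and 33 CPM in FAK-kd libraries. FAK-kd cells stood below both other lines, which overlapped. The log2 fold changes were 0.31 for FAK-WT over FAK-kd (SE 0.09, adjusted p = 0.023), -0.31 for FAK-kd over FAK-/- (SE 0.08, adjusted p = 0.0321) and 0.00 for FAK-WT over FAK-/- cells (95% interval -0.19 to 0.19). The first was lost without FAK-kd replicate 3, FAK-WT replicate 2 or FAK-WT replicate 3 (adjusted p = 0.0762 to 0.111), and the second without any FAK-kd replicate, FAK-/- replicate 2 or FAK-WT replicates 2 or 3 (adjusted p = 0.0591 to 0.137) and in a fit of only the groups compared (adjusted p = 0.0551). *Atg16l2* (chr7:101263034-101302251, minus strand), its paralogue, was at 11.3, 18.7 and 18.1 CPM in FAK-WT, 21.8, 20 and 26.2 CPM in FAK-/- and 15, 17 and 15.7 CPM in FAK-kd libraries. FAK-/- cells were highest in every library, with a log2 fold change of -0.51 for FAK-kd over FAK-/- (SE 0.12, adjusted p = 0.0132) and -0.34 for FAK-WT over FAK-/- cells (SE 0.13, adjusted p = 0.0782). The call was lost without FAK-kd replicate 1 or 3 (adjusted p = 0.056 to 0.0758), and that for FAK-WT appeared without FAK-/- replicate 2 (-0.42, adjusted p = 0.0405).

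The other conjugation genes were not called. *Atg5* and *Atg12*, whose products form the conjugate that ATG16L1 carries, and *Atg7*, the E1-like enzyme, were between -0.21 and 0.16 in the 3 comparisons, though *Atg5* was called lower in FAK-WT than FAK-/- cells with the GC correction (-0.26, adjusted p = 0.0345). *Atg10* was at -0.52, -0.47 and -0.05, with an SE of up to 0.40 at 0.825 to 2.52 CPM, a level at which a difference of that size was not detectable. Among the ATG4 proteases, which trim ATG8 proteins and remove them from lipid, no gene was called: *Atg4b* was the most abundant at 13.4 CPM per kilobase and differed by at most 0.04 in size, *Atg4c* by at most 0.16, and *Atg4a* and *Atg4d* by up to 0.39 and 0.25. *Atg4a* shared 74.9% of its 31-base words with other genes, chiefly *Atg4a-ps*, and is uncertain. It was called higher in FAK-WT than FAK-kd cells without FAK-/- replicate 3 (0.36, adjusted p = 0.0457).

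In the ATG8 family, *Map1lc3a* was lower and *Gabarapl1* higher in FAK-WT than FAK-/- cells, and the other members were not called. *Map1lc3a* (chr2:155276297-155278073, plus strand), which encodes LC3A, was at 10.1, 9.07 and 9.92 CPM in FAK-WT, 14.2, 15.1 and 17.6 CPM in FAK-/- and 21, 21.7 and 23.4 CPM in FAK-kd libraries. The 3 groups did not overlap, with FAK-WT lowest and FAK-kd highest, though the value of FAK-WT replicate 1 rests on 8 counts. The log2 fold changes were -0.71 for FAK-WT over FAK-/- (SE 0.11, adjusted p = 0.000383), -1.21 for FAK-WT over FAK-kd (SE 0.11, adjusted p = 2.2e-06) and 0.50 for FAK-kd over FAK-/- cells (SE 0.10, adjusted p = 0.0056), and none of the 3 calls was lost in a leave-one-out fit. FAK-/- cells lay between the other lines for *Map1lc3a*, whereas FAK-kd cells lay between them for *Vmp1*.

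*Map1lc3b*, which encodes LC3B, the usual protein marker of autophagosomes, was at 85.6, 83.1 and 88.1 CPM in FAK-WT, 91.7, 93.3 and 95.1 CPM in FAK-/- and 88.9, 97.6 and 95.8 CPM in FAK-kd libraries. Its FAK-WT libraries were the lowest, by log2 fold changes of -0.13 (95% interval -0.27 to 0.02) and -0.14 (-0.28 to 0.01), neither called. *Map1lc3a* made up 14.9, 14 and 14.3% of the summed *Map1lc3a* and *Map1lc3b* level per kilobase in FAK-WT libraries, 18.7, 19.4 and 21.5% in FAK-/- libraries and 26, 24.9 and 26.7% in FAK-kd libraries. Of the whole family of 5 it made up 2.77% ± 0.0984 (SD, n = 3) in FAK-WT cells, 4.59% ± 0.554 in FAK-/- cells and 6.09% ± 0.371 in FAK-kd cells. *Gabarapl1* (chr6:129533160-129542346, plus strand), of the GABARAP branch, was at 98.2, 98.2 and 103 CPM in FAK-WT, 83.2, 81.6 and 79.7 CPM in FAK-/- and 91.5, 87.6 and 86.2 CPM in FAK-kd libraries. The order FAK-WT over FAK-kd over FAK-/- held in every library, and FAK-WT over FAK-/- was called (0.30, SE 0.07, adjusted p = 0.00515), though not without FAK-WT replicate 3 (0.27, adjusted p = 0.0737). Against FAK-kd cells it was 0.18 (SE 0.07, adjusted p = 0.0801), but was called by DESeq2 (0.20, adjusted p = 0.0394), with library size alone (adjusted p = 0.0388), after filterByExpr (adjusted p = 0.024), in a fit of only the groups compared (adjusted p = 0.0203), with the GC correction (adjusted p = 0.0301) and without FAK-/- replicate 3 (adjusted p = 0.0109). *Gabarapl1* made up 35.2% ± 1.12 (SD, n = 3) of the family's summed level per kilobase in FAK-WT cells, 29.5% ± 0.406 in FAK-/- cells and 30.1% ± 0.974 in FAK-kd cells. *Gabarap* and *Gabarapl2* were not called, with differences of at most 0.12 in size.

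**Figure D4:**
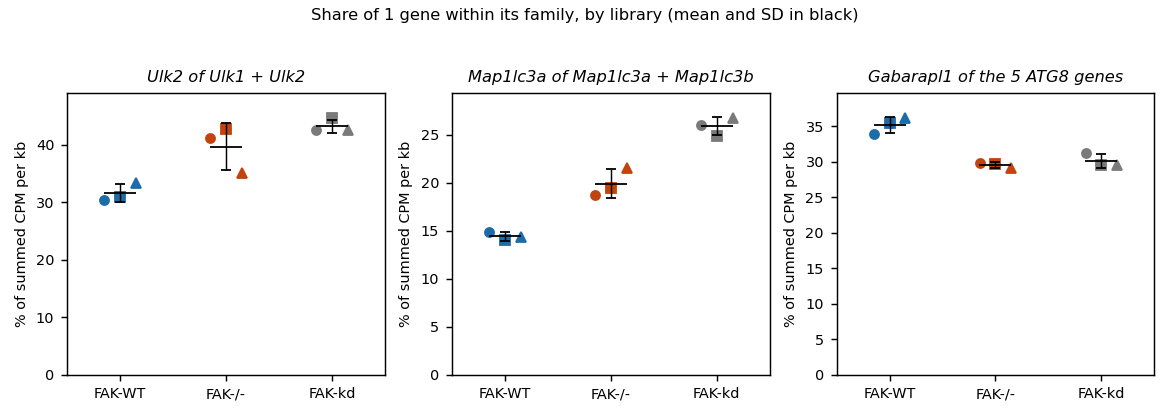
Share of *Ulk2* in *Ulk1* plus *Ulk2*, of *Map1lc3a* in *Map1lc3a* plus *Map1lc3b* and of *Gabarapl1* in the 5 ATG8 genes, as percent of summed CPM per kilobase, in each library with the group mean and SD in black. The *Map1lc3a* share rises from 14 to 14.9% in FAK-WT to 24.9 to 26.7% in FAK-kd libraries, with FAK-/- between them.

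None of the 4 cargo receptors was called in the main edgeR fit, and *Sqstm1* was close to the threshold. *Sqstm1* was at 638, 654 and 672 CPM in FAK-WT, 569, 551 and 579 CPM in FAK-/- and 561, 681 and 679 CPM in FAK-kd libraries. The FAK-WT libraries lay above the FAK-/- ones by a log2 fold change of 0.21 (95% interval 0.05 to 0.37, adjusted p = 0.0692), while FAK-kd replicate 1 lay with FAK-/- cells and the other FAK-kd libraries with FAK-WT cells. It was called against FAK-/- cells by DESeq2 (0.22, adjusted p = 0.0315), after filterByExpr (0.22, adjusted p = 0.047), in a fit of only the groups compared (0.23, adjusted p = 0.0235), with the GC correction (0.27, adjusted p = 0.0115) and without FAK-/- replicate 3 or FAK-kd replicate 1 (adjusted p = 0.0163 to 0.0166), and FAK-kd over FAK-/- cells was called without FAK-kd replicate 1 (0.26, adjusted p = 0.0248). *Nbr1*, a receptor related to p62, and *Tax1bp1*, which binds ubiquitin-marked cargo, differed by up to 0.15 and 0.21 in size. FAK-/- replicate 3 was at 120 CPM for *Tax1bp1*, against 159 and 161 CPM in the other FAK-/- libraries. *Optn* was at -0.39 and -0.42 in FAK-WT cells against FAK-/- and FAK-kd cells (SE 0.22 each), at 1.26 to 3.65 CPM.

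Of the MiT/TFE factors, *Mitf* was lower in FAK-WT than FAK-kd cells in the main edgeR fit but not with DESeq2, and *Tfeb* and *Tfe3* were called in neither. *Mitf* (chr6:97807052-98021349, plus strand) was at 11.3, 12.3 and 13.3 CPM in FAK-WT, 17, 16.6 and 14.2 CPM in FAK-/- and 16.2, 16.7 and 15.1 CPM in FAK-kd libraries. FAK-WT libraries lay below all others. The log2 fold change was -0.33 against FAK-kd (SE 0.11, adjusted p = 0.0439), and -0.32 against FAK-/- cells (SE 0.11, adjusted p = 0.0502), 2 estimates of like size on either side of the threshold. The call was lost with DESeq2 (adjusted p = 0.137), with its size factors in edgeR (adjusted p = 0.0547), with library size alone (adjusted p = 0.0631) and in 8 of the 9 leave-one-out fits (all but that without FAK-/- replicate 3, adjusted p = 0.054 to 0.274), and the difference from FAK-/- cells was called without FAK-/- replicate 3 (-0.40, adjusted p = 0.00482), after filterByExpr (adjusted p = 0.0394) and with the GC correction (adjusted p = 0.0167). *Mitf* is best known from melanocytes, whose 4 measured markers summed to at most 0.21 CPM in any library.

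*Tfeb* was at 2.52, 7.45 and 7.24 CPM in FAK-WT, 6.17, 5.84 and 7.75 CPM in FAK-/- and 5.49, 5.54 and 7.06 CPM in FAK-kd libraries, the 2.52 CPM being 2 counts in the shallow library. The groups overlapped, with log2 fold changes of 0.09 (95% interval -0.33 to 0.50), 0.22 (-0.20 to 0.63) and -0.13 (-0.51 to 0.26). *Tfe3* was at 71.8, 72.8 and 68.7 CPM in FAK-WT, 63.6, 63.3 and 74.9 CPM in FAK-/- and 65.5, 68.1 and 67.3 CPM in FAK-kd libraries, and its fold changes were 0.07 (-0.10 to 0.25), 0.08 (-0.09 to 0.26) and -0.01 (-0.17 to 0.16). With the correction for GC content, *Tfe3* was called higher in FAK-WT than FAK-/- cells (0.17, adjusted p = 0.0264). *Tfe3* made up 73.2% ± 4.23 (SD, n = 3), 67.2% ± 2.64 and 67.6% ± 0.189 of the 3 factors' level per kilobase in FAK-WT, FAK-/- and FAK-kd cells. These factors are controlled through their phosphorylation and place in the cell, which RNA levels do not show.

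At the lysosome, *Lamp2* was higher in FAK-WT cells and *Neu1* was higher than in FAK-kd cells. *Lamp2* (chrX:38401357-38456454, minus strand), needed for the fusion of autophagosomes with lysosomes and for chaperone-mediated autophagy, was at 208, 214 and 224 CPM in FAK-WT, 192, 184 and 144 CPM in FAK-/- and 174, 179 and 178 CPM in FAK-kd libraries. FAK-WT libraries lay above all others, and FAK-/- replicate 3 lay below all others. The log2 fold changes were 0.32 against FAK-/- (SE 0.09, adjusted p = 0.0266) and 0.29 against FAK-kd cells (SE 0.09, adjusted p = 0.0405). The first was lost without FAK-kd replicate 3 or FAK-WT replicates 2 or 3 (adjusted p = 0.0553 to 0.142) and in a fit of only the groups compared (adjusted p = 0.0639), and the second without any 1 FAK-WT or FAK-kd library (adjusted p = 0.0503 to 0.178). The deposited counts sum over the isoforms of *Lamp2*, so they do not tell these functions apart.

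*Lamp1*, its abundant relative, was at 526, 637 and 664 CPM in FAK-WT, 549, 541 and 517 CPM in FAK-/- and 564, 559 and 553 CPM in FAK-kd libraries. FAK-WT replicate 1 was low and the other FAK-WT libraries were above all of the rest, so the groups overlapped. The fold changes of 0.20 (95% interval 0.04 to 0.36, adjusted p = 0.0915) and 0.14 (-0.02 to 0.30, adjusted p = 0.261) were not called in the main edgeR fit. The first was called by DESeq2 (0.22, adjusted p = 0.0209) and with the GC correction (0.22, adjusted p = 0.0349). Without FAK-WT replicate 1 or FAK-/- replicate 3 both were called, at 0.19 to 0.28 against FAK-/- (adjusted p = 0.0106 to 0.0337) and 0.16 to 0.22 against FAK-kd cells (adjusted p = 0.0393 to 0.0458). *Mcoln1*, the lysosomal calcium channel TRPML1, was at 25.2, 24.9 and 23.1 CPM in FAK-WT, 25.1, 22.3 and 26.9 CPM in FAK-/- and 20.1, 26.9 and 25 CPM in FAK-kd libraries. It showed no difference beyond the spread of the libraries, with 95% intervals within -0.30 to 0.27.

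*Neu1* (chr17:34931253-34935953, plus strand), a sialidase of the lysosome, was at 8.81, 11.3 and 11.3 CPM in FAK-WT, 7.25, 6.62 and 9.99 CPM in FAK-/- and 6.06, 7.28 and 7.41 CPM in FAK-kd libraries. All FAK-WT libraries were above the FAK-kd ones, and 1 FAK-/- library, replicate 3, was above FAK-WT replicate 1. The log2 fold change was 0.68 over FAK-kd (SE 0.17, adjusted p = 0.00867) and 0.48 over FAK-/- cells (SE 0.17, adjusted p = 0.0597). The call was lost without FAK-WT replicate 2 or 3 (adjusted p = 0.0603 to 0.0634), while the other appeared without FAK-/- replicate 3 or FAK-WT replicate 1 (0.50 to 0.69, adjusted p = 0.000735 to 0.049), after filterByExpr (adjusted p = 0.0457) and with the GC correction (adjusted p = 0.00386). *Hexa*, the alpha chain of the hexosaminidase that breaks down gangliosides, was at 66.7, 69.1 and 68.6 CPM in FAK-WT, 68.7, 68 and 75.4 CPM in FAK-/- and 72.6, 74.3 and 71.3 CPM in FAK-kd libraries. Its differences were -0.04, -0.08 and 0.04, with 95% intervals within -0.24 to 0.19.

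The rest of the pathway was read from 8 further lists of autophagy and lysosome genes, whose counts stand beside the same background: among the genes kept by filterByExpr, 11.6% were higher and 15.1% lower in FAK-WT against FAK-/- cells, 10.7% and 15.5% against FAK-kd cells, and 6.11% and 5.81% in FAK-kd against FAK-/- cells. No list was tested as a set, and with 7 to 31 genes in each, a few calls make up the difference from these shares. The vacuolar proton pump, which acidifies the lysosome, had calls in 1 direction in both FAK-WT comparisons: 6 of 16 V-ATPase genes were higher and 0 lower in FAK-WT against FAK-/- cells, and 5 and 0 in FAK-WT against FAK-kd cells. At an unadjusted p under 0.05, 8 and 7 were higher and 0 lower in these comparisons, and DESeq2 gave the same counts as edgeR. The median log2 fold change of the list was 0.15 in both, beside 0.00 for all genes. *Atp6v1b2*, a subunit of the pump's catalytic head, was at 138, 145 and 150 CPM in FAK-WT, 98.8, 96 and 101 CPM in FAK-/- and 88.5, 97.8 and 95.8 CPM in FAK-kd libraries. It was 0.56 higher in FAK-WT than FAK-/- (SE 0.07, adjusted p = 2.5e-05) and 0.63 higher than in FAK-kd cells (SE 0.07, adjusted p = 8.1e-06), with no overlap. *Atp6ap2*, an accessory subunit also known as the prorenin receptor, was 0.55 and 0.35 higher (adjusted p = 0.00119 and 0.026), and FAK-/- replicate 3 was its lowest library at 57.4 CPM. *Atp6v1c1* was higher in FAK-WT (0.34, adjusted p = 0.00541) and in FAK-kd cells (0.40, adjusted p = 0.00261) than in FAK-/- cells, and was the 1 gene of the list called in FAK-kd against FAK-/- cells, where DESeq2 called 1 higher and 1 lower. The second call of *Atp6ap2* was lost without any FAK-kd library or FAK-WT replicates 2 or 3 (adjusted p = 0.0617 to 0.142), and the first of *Atp6v1c1* without FAK-WT replicate 3 (adjusted p = 0.0539). When single libraries were left out, the genes of the list called higher ran from 3 (without FAK-WT replicate 3) to 8 (without FAK-/- replicate 3) against FAK-/- cells, and from 1 (without FAK-WT replicate 2, FAK-WT replicate 3 or FAK-kd replicate 3) to 8 (without FAK-/- replicate 3) against FAK-kd cells, where 3 were left without FAK-kd replicate 1 and 2 without FAK-kd replicate 2, with 0 lower throughout. In FAK-kd against FAK-/- cells 1 was lower without FAK-/- replicate 3.

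Other core autophagy genes, 11 of them measured, had 2 higher and 2 lower in FAK-WT cells in each comparison. The largest change was in *Atg9b*, the paralogue of *Atg9a*, at 30.2, 32.1 and 29.4 CPM in FAK-WT, 6.23, 5.84 and 8.84 CPM in FAK-/- and 6.27, 14.9 and 12.1 CPM in FAK-kd libraries. The FAK-WT libraries lay well above all others, by log2 fold changes of 2.14 (SE 0.24, adjusted p = 1.3e-05) and 1.47 (SE 0.23, adjusted p = 0.000335). Sharing of sequence words with other annotated genes, a limit given above for *Atg9a*, was not tested for *Atg9b*. The same holds for the other genes of these further lists, so reads split between genes could enter their values. *Atg2b*, a lipid transfer protein, was also higher, by 0.54 and 0.52. *Wdr45*, a relative of the WIPI proteins, was lower by -0.35 and -0.55 (adjusted p = 0.0277 and 0.00133). *Zkscan3*, a repressor of autophagy genes, was at -0.66 against FAK-/- cells (adjusted p = 0.002) and -0.36 against FAK-kd cells (adjusted p = 0.0672), and *Foxo3*, an activator, was lower than in FAK-kd cells (-0.53, adjusted p = 0.0103) with overlapping libraries. Without FAK-WT replicates 2 or 3 the calls of *Wdr45* against FAK-/- cells and of *Foxo3* were lost, the former also without FAK-/- replicate 1 (adjusted p = 0.0592 to 0.161) and the latter without FAK-kd replicate 3 (adjusted p = 0.0615 to 0.137). No gene of this list was called between FAK-kd and FAK-/- cells in the main edgeR fit or by DESeq2, though 2 were higher and 1 lower at an unadjusted p under 0.05, and 3 were higher and 1 lower without FAK-/- replicate 3.

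Of 15 other selective autophagy receptors, 5 were higher and 1 lower in FAK-WT than FAK-/- cells, and 4 and 1 against FAK-kd cells, the latter falling to 2 higher without any 1 FAK-kd library or FAK-WT replicate 3. *Bnip3*, a receptor for mitochondria, was at 233, 251 and 283 CPM in FAK-WT, 189, 186 and 154 CPM in FAK-/- and 197, 185 and 177 CPM in FAK-kd libraries, and was 0.55 and 0.47 higher in FAK-WT cells (adjusted p = 0.000465 and 0.00155). Its relative *Bnip3l* was 0.41 and 0.29 higher (adjusted p = 0.00582 and 0.0394), the second call being lost without any FAK-kd library or FAK-WT replicates 1 or 3 (adjusted p = 0.0726 to 0.147). *Retreg1*, a receptor for endoplasmic reticulum, was 0.76 higher than in FAK-/- cells (SE 0.14, adjusted p = 0.00102) and *Tollip* 0.25 and 0.49 higher (adjusted p = 0.0236 and 0.00013). *Calcoco1*, another reticulum receptor, went the other way, at -0.54 and -0.89 (adjusted p = 0.0048 and 7.0e-05). Between FAK-kd and FAK-/- cells, 1 receptor was higher (*Sec62*, 0.27, adjusted p = 0.0331) and 1 lower (*Tollip*, -0.25, adjusted p = 0.0352). Both were lost without any 1 FAK-kd library, FAK-/- replicate 2 or FAK-WT replicates 2 or 3, and *Tollip* also without FAK-/- replicate 1 (adjusted p = 0.0634 to 0.154 and 0.0687 to 0.116). The call of *Tollip* in FAK-WT over FAK-/- cells was lost without FAK-/- replicate 2 or FAK-WT replicates 2 or 3 (adjusted p = 0.0599 to 0.1).

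The lysosomal enzymes were split. Of 31 other hydrolases and activators, 6 were higher and 6 lower in FAK-WT than FAK-/- cells, 4 and 7 against FAK-kd cells, and 4 and 0 in FAK-kd over FAK-/- cells, where DESeq2 called 3 and 1 and 8 and 2 passed an unadjusted p of 0.05. Without FAK-WT replicate 2 the counts were 4 and 2, 2 and 3, and 3 and 0, and without FAK-/- replicate 3 they were 8 and 6, 7 and 11, and 6 and 0. *Lipa*, the acid lipase, and *Arsa*, a sulfatase, were higher in FAK-kd than in FAK-/- cells, by 0.60 (adjusted p = 0.00142) and 0.85 (adjusted p = 0.000379). *Arsa* was also higher in FAK-WT than FAK-/- cells (0.63, adjusted p = 0.00328) and was not called against FAK-kd cells (-0.22). *Lipa* was lower in FAK-WT than FAK-kd cells (-0.43, adjusted p = 0.0123), though not without FAK-kd replicate 3 or FAK-WT replicate 2 (adjusted p = 0.0781 to 0.104). *Manba*, a mannosidase, was lower in FAK-WT than FAK-/- cells by -1.12 (adjusted p = 0.0251), though not without FAK-/- replicate 1 or FAK-WT replicates 2 or 3 (adjusted p = 0.0611 to 0.134). *Gm2a*, an activator protein that presents gangliosides to the hexosaminidase, was lower in FAK-WT than FAK-kd cells by -0.61 (adjusted p = 0.0392), though not without FAK-kd replicates 2 or 3 or FAK-WT replicates 2 or 3 (adjusted p = 0.128 to 0.281). *Lgmn*, a cysteine protease, was 0.72 and 0.54 higher in FAK-WT cells than in FAK-/- and FAK-kd cells.

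Of 17 lysosomal membrane and trafficking genes, 2 were higher and 2 lower in FAK-WT against FAK-/- cells, and 0 and 2 against FAK-kd cells, where DESeq2 also called 0 higher and 4 were higher at an unadjusted p under 0.05. Against FAK-/- cells DESeq2 called 1 higher. With single libraries left out, those higher ran from 0 (without FAK-WT replicate 3) to 3 (without FAK-kd replicate 1). Against FAK-kd cells, 3 were higher and 3 lower without FAK-/- replicate 3. *Npc2*, which carries cholesterol out of the lysosome, was at 175, 198 and 202 CPM in FAK-WT, 344, 336 and 343 CPM in FAK-/- and 389, 321 and 323 CPM in FAK-kd libraries. It was lower in FAK-WT cells by -0.81 (SE 0.08, adjusted p = 5.2e-06) and -0.82 (SE 0.08, adjusted p = 4.5e-06), while *Npc1*, the membrane protein that acts with it, was 0.46 higher than in FAK-/- cells (adjusted p = 0.00821, and 0.0657 without FAK-WT replicate 3). *M6pr*, a receptor that sorts enzymes to the lysosome, was lower by -0.52 and -0.45 (adjusted p = 0.000648 and 0.00188). *Igf2r*, the other such receptor, was higher in FAK-kd than in FAK-/- cells by 0.59 (adjusted p = 0.00731, and 0.0743 without FAK-kd replicate 3).

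Of 14 genes for the fusion of autophagosomes with lysosomes, *Rab7* was called in FAK-WT over FAK-/- cells (0.24, adjusted p = 0.015) and *Vamp8* in FAK-kd over FAK-/- cells (0.56, adjusted p = 0.00965). *Rab7* was not called without FAK-WT replicates 2 or 3 (adjusted p = 0.0526 to 0.0884), nor *Vamp8* without FAK-kd replicates 2 or 3 (adjusted p = 0.0572 to 0.0599). None was called in FAK-WT over FAK-kd cells in the main edgeR fit or by DESeq2. Without FAK-/- replicate 3, 1 was lower, and 2 were lower at an unadjusted p under 0.05. Of 30 genes of the mTORC1 and AMPK pathway, which restrains and starts autophagy, 6 were higher and 1 lower in FAK-WT than FAK-/- cells, 6 and 5 against FAK-kd cells, and 3 and 1 in FAK-kd over FAK-/- cells. Without FAK-WT replicate 3 these were 4 and 0, 2 and 2, and 2 and 1, and without FAK-/- replicate 3 they were 7 and 4, 8 and 6, and 5 and 2. *Flcn* and *Fnip2*, partners that act on the lysosomal Rag GTPases, were higher in FAK-WT cells against both lines, by 0.44 and 0.60 for *Flcn* (adjusted p = 0.00678 and 0.000641) and by 0.47 and 0.36 for *Fnip2* (adjusted p = 0.00392 and 0.0197). *Sesn2*, a leucine sensor upstream of mTORC1, was 0.45 and 0.38 higher (adjusted p = 0.00256 and 0.00849). *Deptor*, an inhibitor of mTOR, was highest in FAK-kd cells, by 0.88 over FAK-/- cells (adjusted p = 0.000163), and *Akt1s1*, which encodes the inhibitor PRAS40, lowest there, by -0.58 (adjusted p = 0.00379). For *Akt1s1* the FAK-/- libraries were at 109, 104 and 152 CPM, and this estimate ran from -0.69 to -0.39 over the leave-one-out fits. Its call in FAK-WT over FAK-kd cells (0.35, adjusted p = 0.0473) was lost without any 1 FAK-WT or FAK-kd library (adjusted p = 0.0578 to 0.17). Without FAK-WT replicate 3, *Flcn* was not called against FAK-/- cells (adjusted p = 0.0722), and without FAK-WT replicates 2 or 3 neither *Sesn2* (0.0706 to 0.0776) nor *Fnip2* was called against FAK-kd cells, *Fnip2* also not without FAK-kd replicate 1 (adjusted p = 0.0512 to 0.0817).

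Of the 7 genes of Src and its adaptors, 3 were lower in FAK-WT than FAK-/- cells and none higher, also at an unadjusted p under 0.05 and with DESeq2, which called 2 lower. *Src* was at 113, 135 and 128 CPM in FAK-WT, 164, 168 and 201 CPM in FAK-/- and 146, 154 and 158 CPM in FAK-kd libraries. Its log2 fold changes were -0.47 against FAK-/- (SE 0.09, adjusted p = 0.00124) and -0.25 against FAK-kd cells (SE 0.09, adjusted p = 0.0624). *Cblb*, a ubiquitin ligase of the Cbl family, was at 41.5, 37.7 and 35.2 CPM in FAK-WT, 68.3, 71.1 and 70.5 CPM in FAK-/- and 61.7, 73.9 and 77.5 CPM in FAK-kd libraries, lower by -0.92 (adjusted p = 6.5e-06) and -0.94 (adjusted p = 5.3e-06). The third, *Ret*, averaged under 1 CPM and was at 0 in all FAK-WT libraries. The plot of the lists gives all of these counts beside the 43 members.

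**Figure D5:**
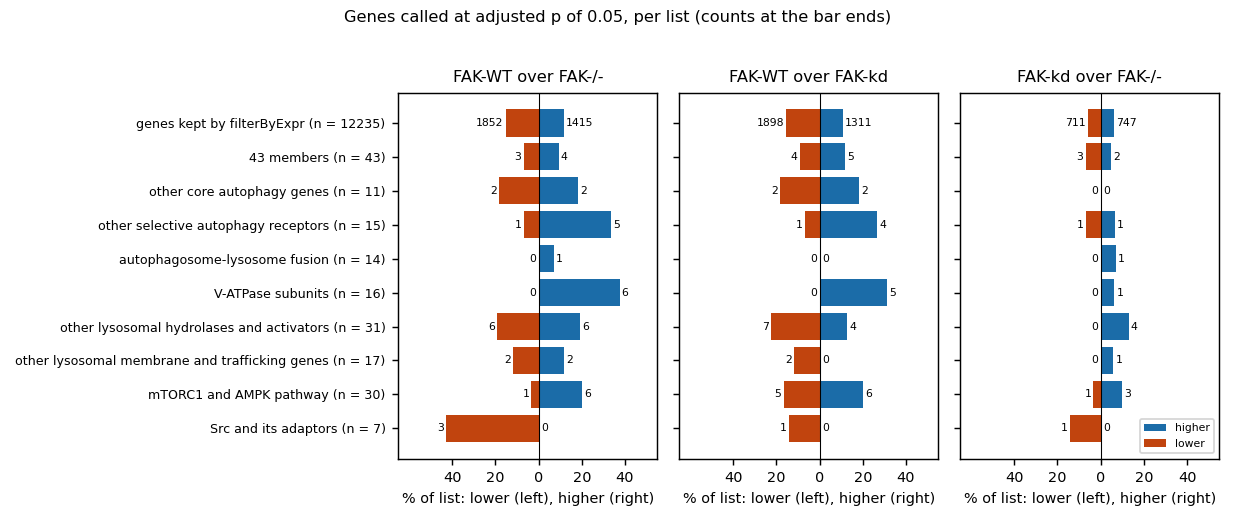
Percent of each gene list called higher (blue, right) or lower (orange, left) at an adjusted p of 0.05 in the 3 comparisons, with the number of genes at the bar ends. The V-ATPase list has 6 and 5 genes higher and 0 lower in the FAK-WT comparisons, while the 43 members have 4 and 5 higher and 3 and 4 lower.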

How the data were processed

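RNA-seq libraries of 3 SCC cell lines were grouped by their sample labels. The authors pseudoaligned paired-end reads with kallisto 0.43.1 per the labels, which also name GRCm38 (mm10) and DESeq2, and used tximport for gene-level values. The authors deposited expected counts (estimated counts as whole numbers) that were not scaled to library size, and 0 deposited columns were left unassigned. Library totals ran from 779755 to 37264636, which sets the counting precision, and all 9 libraries were kept. The transcript-length offsets of tximport were not used here.

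Symbols, positions and transcript lengths came from GENCODE vM21, for 18856 of 19044 identifiers, and promoters from RefSeq. The main test was edgeR 4.0.16 (R 4.3.3, TMM, glmQLFit and glmQLFTest, 1 fit of 9 libraries, no filter), with Benjamini-Hochberg adjustment over all genes. SE is the log2 fold change divided by the root of the F statistic, and CPM was computed on TMM-scaled library sizes. Steps were tested on simulated data. The alternatives were DESeq2 1.42.0, its size factors, library size alone, filterByExpr, only the groups compared, a replicate block, glmTreat and leaving out each library. Leaving out 2 libraries together and a GC correction (lowess trends as offsets) were added after the data were seen.

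The members and lists were chosen with earlier results of these data known. By rule, library values were given for members past the 2-fold threshold, for the 8 largest changes per comparison among the called members and for 14 set members, and from each list the 2 largest changes per comparison with a mean of at least 1 CPM. Of the genes this rule names, 1 is not reported here. *Atg2b*, *Foxo3*, *Bnip3l*, *Lgmn*, *Npc1* and *Ret*, and the library values of *Uvrag* and *Tax1bp1*, were chosen after their values were seen.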

Additional observations from a re-analysis of the deposited data

How the results depend on the processing

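No direction of a called member reversed in any alternative run: of 2193 repeats of the 129 fold changes of members, 2059 kept their side of the threshold, 67 lost the call and 67 gained one. For the named genes of the other lists, 1604 of 1731 repeats kept their side, 82 lost the call and 45 gained one. In FAK-WT against FAK-/- cells, the 7 called members became 11 with filterByExpr, 14 with the GC correction and 14 with FAK-WT replicate 1 and FAK-/- replicate 3 both left out, and 4 to 13 when single libraries were left out. In FAK-WT against FAK-kd cells, the 9 became 16 without those 2 libraries and 3 to 15 without single ones. In FAK-kd against FAK-/- cells, the 5 became 2 in a fit of only the groups compared, 8 without the 2 libraries and 1 to 7 without single ones. Past the 2-fold threshold, the 2 members in FAK-WT against FAK-kd cells became 0 with glmTreat, 1 without the 2 libraries and 1 to 2 without single ones. Among fits without 1 library, those without FAK-/- replicate 3 gave the highest counts in all 3 comparisons, and the lowest came without FAK-WT replicate 2 (the first and second comparison), FAK-WT replicate 3 (the first) and FAK-kd replicate 3 (the last). The cause was not tested. With the replicate block, 2 members were called in FAK-kd against FAK-/- cells in place of 5, and in FAK-WT against FAK-kd cells *Mitf* and *Atg16l1* were not called while *Ulk1* and *Atg4a* were. No label says whether libraries with the same number were prepared together. Deviations from group means correlated with a mean r of -0.00768 over 9 pairs with the same number and 0.00353 over 18 pairs with different numbers. These values cannot decide it, because counting error in FAK-WT replicate 1 and the GC trend of FAK-/- replicate 3 enter the deviations. Other scalings moved the median of all genes by at most 0.026 on the log2 scale. In FAK-WT replicate 1, changes of members near 3.78 CPM could not be seen.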
